A study of Mus musculus with 12 samples.

Results

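Mural cells are the smooth muscle cells and pericytes that wrap blood vessels, and 9 genes of the mural cell surface and its signalling were followed here in mouse aortic valves. The genes are Ntrk3, Pdgfrb, Ednra, Ednrb, Agtr1a, Kcnmb1, Rgs5, Cspg4 and Mcam. They were taken by name from a list of mural cell receptors and channels, a list chosen with earlier results of these data known. All 9 are among the 20620 genes of the deposited count table, and all 9 passed the filter on low counts that left 19346 genes for testing. The label holds for 6 of them: 5 are receptors and Kcnmb1 is a channel subunit, while Rgs5 is a regulator inside the cell, Cspg4 a membrane proteoglycan and Mcam an adhesion molecule.

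The study asked how mRNA in the aortic valve differs when Notch1 and Gata5 are disrupted together. Aortic valves were dissected from mice 10 days after birth, and each library was made from the pooled tissue of 3 valves. There were 4 libraries labelled Notch1+/-;Gata5-/- (called Gata5-null-labelled below), 4 labelled Notch1+/-;Gata5+/- (double-heterozygous-labelled) and 4 of wildtype mice. Both mutant groups carry the same Notch1 genotype by label and differ from each other in Gata5. Notch1 is a receptor through which neighbouring cells signal, and Gata5 is a transcription factor of the endocardium. The labels do not say how the alleles were made, in which cells they act, or what sex or strain the mice were. Pooling leaves the pool as the unit of replication, and the groups compared with wildtype share the same 4 wildtype libraries.

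Library totals were 13866604 to 25059653 counts. Gata5 had 0 counts in all 4 Gata5-null-labelled libraries, against 4.09 ± 2.27 CPM in double-heterozygous-labelled and 1.77 ± 1.03 CPM in wildtype libraries (SD, n = 4 each). CPM is a gene's count scaled to a common library total, here by the TMM method. Notch1 averaged 185 ± 29.5 CPM in Gata5-null-labelled, 172 ± 20.6 CPM in double-heterozygous-labelled and 128 ± 26.4 CPM in wildtype libraries. Thus neither gene had a lower mean in double-heterozygous-labelled than in wildtype libraries, and genotype is given as labelled. A pair of libraries stood apart from the rest, Gata5-null-labelled replicate 3 with 6000 genes at 0 and wildtype replicate 2 with 3208, against 1017 to 2908 in the other 10. Wildtype replicate 2 did so only slightly. Its mean Spearman correlation with the other libraries was 0.923, near the 0.930 of Gata5-null-labelled replicate 2. That of Gata5-null-labelled replicate 3 was 0.891. The labels name no batch.

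Mural cells are recruited to vessels by platelet-derived growth factor, which endothelial cells release and the receptor Pdgfrb binds. Their tone is set by peptides such as endothelin and angiotensin II, whose receptors act through G proteins to raise calcium, and by potassium channels that oppose the rise. In the root of the aorta and the valve, smooth muscle lies beside interstitial cells that carry some of the same receptors, so several of the 9 genes are not confined to mural cells. Pdgfrb is also known in fibroblasts, Ednrb in endothelium, melanocytes and Schwann cells, Mcam in endothelium and Ntrk3 in neurons.

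Mural cell markers other than the 9 genes were measured in every library. Notch3, the Notch receptor of mural cells, lay between 179 and 277 CPM, and the potassium channel genes Abcc9 and Kcnj8 between 126 and 256 CPM and between 18.2 and 34.4 CPM. Of 24 such markers, Higd1b was at 0 in 3 libraries, Ndufa4l2 in 2, and Vtn, Foxs1 and Gper1 in 1 library each. Heart muscle was present too: Myh6, the cardiac myosin heavy chain, was at 6479 CPM or more in every library. Foxd3, a gene of the neural crest, was at 0 in 4 libraries, whereas Dct, an enzyme of melanocytes, was counted in all 12 with a median of 53.2 CPM.

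Per kilobase of exon, Rgs5 stood far above the other 8 genes, at 132 ± 29.0 CPM per kb in Gata5-null-labelled, 134 ± 14.4 in double-heterozygous-labelled and 132 ± 28.6 in wildtype libraries. In wildtype valves Pdgfrb followed with 39.8 ± 5.86 CPM per kb, Mcam with 35.4 ± 3.89 and Cspg4 with 22.9 ± 5.92. The next 4 lay close together in wildtype: Kcnmb1 at 10.3 ± 3.01, Ednrb at 8.24 ± 0.534, Ednra at 8.02 ± 1.69 and Ntrk3 at 6.72 ± 0.651 CPM per kb. Agtr1a was lowest at 2.91 ± 0.815 CPM per kb. Neighbours in this order whose means differ by less than the larger of their SDs are Pdgfrb and Mcam, Kcnmb1 and Ednrb, Ednrb and Ednra, and Ednra and Ntrk3. The places of Ntrk3 and Ednra depend on the length used. The exons of Ntrk3 together span 30170 bases and its longest coding transcript 19703, and for Ednra these lengths are 5476 and 3625. Ntrk3 has 4 coding transcripts, the shortest of 2678 bases, and which of them gave the reads is not known. Its place among the 9 genes is therefore not fixed. By the longest transcript, wildtype Ednra stood at 12.1 ± 2.55, Ntrk3 at 10.3 ± 0.998 and Kcnmb1 at 10.3 ± 3.01 CPM per kb, above Ednrb at 8.56 ± 0.555. Cspg4 stood at 33.6 ± 8.70 CPM per kb by this length.

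**Figure D1:**
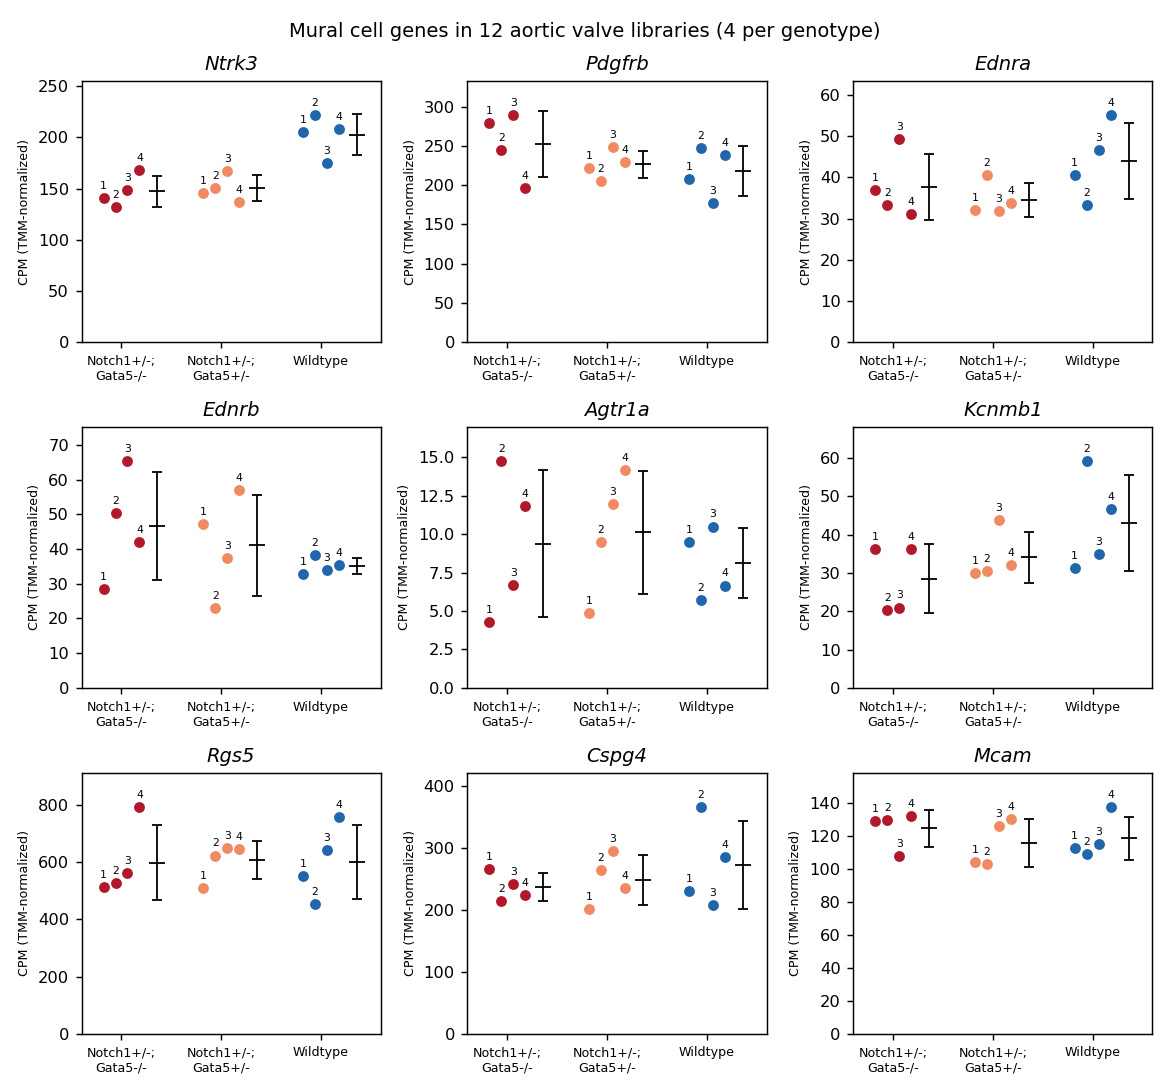
Level of each of the 9 genes in CPM (TMM-normalized, axes from 0) in the 12 libraries. Points are libraries with their replicate numbers, and the bar beside each group is the mean with its SD (n = 4). The Ntrk3 points of both mutant groups lie at or below 167.7 CPM and all wildtype points at or above 175.3 CPM, while the groups overlap for the other 8 genes.

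Ntrk3 encodes the receptor tyrosine kinase for neurotrophin 3. It was the member whose genotype groups separated. Its level was 140.7, 131.7, 148.4 and 167.7 CPM in Gata5-null-labelled libraries, 145.6, 151.0, 167.1 and 137.2 CPM in double-heterozygous-labelled libraries and 205.6, 221.8, 175.3 and 208.6 CPM in wildtype libraries. Every mutant library was below every wildtype library, and the mutant groups covered almost the same range. Behind these values lie 2033 to 4725 counts per library.

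Relative to wildtype, Ntrk3 had a log2 fold change of -0.46 ± 0.12 (SE; 95% interval -0.72 to -0.21) in Gata5-null-labelled libraries, a fold of 0.726 (147 ± 15.3 CPM in Gata5-null-labelled and 203 ± 19.7 CPM in wildtype libraries). In double-heterozygous-labelled libraries the log2 fold change against wildtype was -0.43 ± 0.12 (95% interval -0.69 to -0.18), with a mean of 150 ± 12.6 CPM. By edgeR's quasi-likelihood test neither was called after Benjamini-Hochberg adjustment over all 19346 genes (edgeR adjusted p = 0.511 for Gata5-null-labelled and 1 for double-heterozygous-labelled). The exact two-sided permutation test gave p = 0.0286 in both comparisons, the smallest value that 4 against 4 libraries allow. Groups without overlap and lower than wildtype were found for 1.99% of all genes in the Gata5-null-labelled libraries and for 0.915% in the double-heterozygous-labelled libraries. In whole valves, fewer cells of a type and less RNA per cell cannot be told apart.

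By p, Ntrk3 ranked 41 of 19346 genes in the first of these comparisons and 3 of 19346 in the second. The 2 comparisons share their wildtype libraries. Between the mutant groups the log2 fold change of Ntrk3, Gata5-null-labelled over double-heterozygous-labelled, was -0.03 ± 0.12 with a 95% interval of -0.29 to 0.23 (edgeR adjusted p = 1). The deposited table of the authors' own comparison, which names no groups and whose fold changes match a DESeq2 fit of Gata5-null-labelled over wildtype, lists Ntrk3 at a log2 fold change of -0.44 with an adjusted p of 0.103 and marks it as not significant. None of the 9 genes is among the 33 genes that the authors' deposited table marks.

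Setting both mutant groups together against wildtype was added after Ntrk3 had been seen to be lower in each. In that comparison its log2 fold change was -0.45 ± 0.11 (edgeR adjusted p = 0.692, beside 0.00517% of all genes called) and its groups did not overlap, which follows from the separation already seen in each comparison and is no further support. Groups without overlap in this direction were found for 0.191% of genes. Without the pair of libraries that stood apart, the log2 fold change of Ntrk3 was -0.42 in Gata5-null-labelled and -0.39 in double-heterozygous-labelled libraries.

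Pdgfrb, the receptor for the B and D chains of platelet-derived growth factor, differed by less than the spread between libraries. It had 279.8, 244.9, 289.3 and 196.4 CPM in Gata5-null-labelled, 221.9, 205.6, 248.3 and 230.0 CPM in double-heterozygous-labelled and 208.1, 247.7, 176.9 and 238.7 CPM in wildtype libraries. A pair of Gata5-null-labelled libraries exceeded all others, and the other libraries of that group lay within the wildtype range. The log2 fold change over wildtype was 0.21 ± 0.14 in Gata5-null-labelled and 0.06 ± 0.14 in double-heterozygous-labelled libraries (edgeR adjusted p = 0.9997 and 1), the first of which was 0.13 without wildtype replicate 3. Set against Pdgfra, the receptor chain of fibroblasts, in the same library, Pdgfrb stood at 1.14 ± 0.190 in Gata5-null-labelled, 0.927 ± 0.0728 in double-heterozygous-labelled and 0.914 ± 0.163 in wildtype libraries. For Gata5-null-labelled over wildtype this ratio had an exact permutation p of 0.143. This ratio and the ratios below were chosen after the levels were seen.

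Endothelin binds the receptors Ednra, which contracts smooth muscle, and Ednrb. Ednra was at 37.0, 33.2, 49.3 and 31.1 CPM in Gata5-null-labelled, 32.1, 40.6, 31.8 and 33.9 CPM in double-heterozygous-labelled and 40.7, 33.3, 46.5 and 55.1 CPM in wildtype libraries. Its groups overlapped, and its log2 fold change over wildtype was -0.22 ± 0.20 in Gata5-null-labelled and -0.34 ± 0.20 in double-heterozygous-labelled libraries (edgeR adjusted p = 0.9997 and 1). Without wildtype replicate 4 these Ednra values were -0.09 in Gata5-null-labelled and -0.21 in double-heterozygous-labelled libraries, and without both libraries that stood apart -0.48 in Gata5-null-labelled and -0.46 in double-heterozygous-labelled libraries. Ednrb was at 28.4, 50.5, 65.4 and 42.1 CPM in Gata5-null-labelled, 47.1, 22.9, 37.3 and 56.9 CPM in double-heterozygous-labelled and 32.9, 38.2, 34.1 and 35.4 CPM in wildtype libraries. The mutant libraries lay on both sides of a narrow wildtype range: the coefficient of variation of Ednrb was 33.3% in Gata5-null-labelled, 35.3% in double-heterozygous-labelled and 6.48% in wildtype libraries, a difference in spread that was not tested. The log2 fold change of Ednrb was 0.40 ± 0.25 (95% interval -0.11 to 0.92) in Gata5-null-labelled and 0.22 ± 0.25 in double-heterozygous-labelled libraries. The Ednrb value in Gata5-null-labelled libraries was 0.20 without replicate 3 of that group and 0.25 without both libraries that stood apart. In double-heterozygous-labelled libraries it was 0.03 without replicate 4 and 0.42 without replicate 2 of that group.

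The ratio of Ednrb to Ednra averaged 1.24 ± 0.328 in Gata5-null-labelled, 1.22 ± 0.484 in double-heterozygous-labelled and 0.833 ± 0.221 in wildtype libraries. It was above 1 in 3 of 4 Gata5-null-labelled, 3 of 4 double-heterozygous-labelled and 1 of 4 wildtype libraries. The exact permutation p was 0.0857 for Gata5-null-labelled and 0.286 for double-heterozygous-labelled libraries over wildtype, so neither difference passed 0.05. The summed level of 15 Schwann cell and melanocyte genes, cells that also use Ednrb, lay between 140 and 222 CPM in Gata5-null-labelled, 150 and 185 CPM in double-heterozygous-labelled and 131 and 181 CPM in wildtype libraries. Their part in the Ednrb values was not tested.

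Agtr1a, the main angiotensin II receptor of smooth muscle, was the least counted member, with 91 to 292 counts per library. Its level was 4.26, 14.8, 6.68 and 11.8 CPM in Gata5-null-labelled, 4.84, 9.5, 11.9 and 14.2 CPM in double-heterozygous-labelled and 9.51, 5.73, 10.5 and 6.66 CPM in wildtype libraries. Libraries of each mutant group lay on both sides of the wildtype range. The log2 fold change was 0.21 ± 0.44 in Gata5-null-labelled (95% interval -0.69 to 1.11) and 0.32 ± 0.44 in double-heterozygous-labelled libraries. At this depth and spread no difference was detected. With a library left out the value ranged from -0.09 (without Gata5-null-labelled replicate 2) to 0.47 (without Gata5-null-labelled replicate 1) in Gata5-null-labelled libraries. In double-heterozygous-labelled libraries it ranged from 0.12 (without replicate 4 of that group) to 0.55 (without its replicate 1), and it was 0.19 without wildtype replicate 2. Mice carry a near-identical second gene, Agtr1b, and how reads shared by the pair were assigned is not given in the sources used here.

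Kcnmb1 encodes the beta 1 subunit that raises the calcium sensitivity of the large-conductance potassium channel, whose pore is Kcnma1. It was at 36.3, 20.4, 21.0 and 36.4 CPM in Gata5-null-labelled, 29.9, 30.4, 43.9 and 32.1 CPM in double-heterozygous-labelled and 31.4, 59.3, 34.96 and 46.6 CPM in wildtype libraries. The lowest Gata5-null-labelled libraries were replicates 2 and 3, while replicates 1 and 4 lay inside the wildtype range. The log2 fold change over wildtype was -0.59 ± 0.24 (95% interval -1.08 to -0.10) in Gata5-null-labelled libraries, the largest in size among the 9 genes, with an edgeR adjusted p of 0.840 and an exact permutation p of 0.171. In double-heterozygous-labelled libraries it was -0.34 ± 0.24 (edgeR adjusted p = 1). The value in Gata5-null-labelled libraries moved to -0.39 without wildtype replicate 2 and to -0.27 without both libraries that stood apart. The value in double-heterozygous-labelled libraries was -0.14 without wildtype replicate 2.

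Kcnma1 itself averaged 24.1 ± 8.54 CPM in Gata5-null-labelled, 27.9 ± 3.48 CPM in double-heterozygous-labelled and 30.2 ± 8.48 CPM in wildtype libraries. The ratio of Kcnmb1 to Kcnma1 was 1.35 ± 0.734 in Gata5-null-labelled, 1.25 ± 0.339 in double-heterozygous-labelled and 1.44 ± 0.285 in wildtype libraries, which differed by less than the spread (exact permutation p = 0.657 for Gata5-null-labelled and 0.400 for double-heterozygous-labelled over wildtype).

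Rgs5, a regulator that switches off G protein signals and a widely used pericyte marker, was the most abundant member. It had 514.2, 526.9, 561.7 and 794.9 CPM in Gata5-null-labelled, 511.1, 624.0, 649.6 and 646.9 CPM in double-heterozygous-labelled and 551.6, 454.7, 642.2 and 760.0 CPM in wildtype libraries. The means of 599 ± 132 CPM in Gata5-null-labelled, 608 ± 65.6 CPM in double-heterozygous-labelled and 602 ± 130 CPM in wildtype libraries lay within 1 SD of each other. Its log2 fold change over wildtype was -0.01 ± 0.15 (95% interval -0.33 to 0.31) in Gata5-null-labelled and 0.01 ± 0.15 (95% interval -0.31 to 0.33) in double-heterozygous-labelled libraries, values so near 0 that their sign turned under several other settings.

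Promoter windows of 300 bases from RefSeq (GRCm38.p6) matched 6 of the 9 genes, all but Ntrk3, Pdgfrb and Agtr1a. They were searched on both strands for the RBPJ core TGGGAA, bound by the partner of activated Notch, for the letters GATA with A or T before and A or G after them, and for the CArG box of smooth muscle genes. The 2 windows that held a match are shown, with the matches in capitals on the strand of the gene: that of Kcnmb1 (chr11:33962763-33963062, plus strand), the member with the largest fold change, and that of Rgs5 (chr1:169655251-169655550, plus strand), the member with the smallest.
Kcnmb1: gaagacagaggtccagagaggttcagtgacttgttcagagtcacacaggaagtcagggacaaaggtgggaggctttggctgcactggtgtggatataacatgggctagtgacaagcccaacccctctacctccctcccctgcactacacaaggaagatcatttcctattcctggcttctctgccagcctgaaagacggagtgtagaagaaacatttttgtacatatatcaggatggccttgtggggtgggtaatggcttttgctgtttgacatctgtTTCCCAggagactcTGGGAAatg
Rgs5: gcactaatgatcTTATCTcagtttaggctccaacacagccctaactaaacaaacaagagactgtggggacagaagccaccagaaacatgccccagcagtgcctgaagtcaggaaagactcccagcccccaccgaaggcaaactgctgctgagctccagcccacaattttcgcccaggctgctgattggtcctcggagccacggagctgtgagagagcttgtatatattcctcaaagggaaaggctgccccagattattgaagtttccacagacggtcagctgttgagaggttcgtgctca
The Kcnmb1 window held the RBPJ core at 27 and 41 bases after the start, the first of them on the minus strand and so printed as TTCCCA. The Rgs5 window held a GATA match at position -238, on the minus strand and printed as TTATCT. Of all promoter windows of this length, 25.6% hold the RBPJ core and 29.8% any of the 4 GATA spellings, beside 1 of 6 members each, so the share among the members is not above that of other promoters. The CArG box was in 1.63% of all windows and in 0 of the 6. A match describes the letters only.

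Cspg4, the NG2 proteoglycan of pericytes and immature smooth muscle, was at 265.4, 214.3, 242.5 and 224.2 CPM in Gata5-null-labelled, 200.8, 264.2, 295.6 and 235.1 CPM in double-heterozygous-labelled and 229.9, 366.8, 208.4 and 285.6 CPM in wildtype libraries. Wildtype replicate 2 was the highest and the groups overlapped, with log2 fold changes over wildtype of -0.20 ± 0.16 in Gata5-null-labelled and -0.13 ± 0.16 in double-heterozygous-labelled libraries. Without wildtype replicate 2 the value was -0.01 in Gata5-null-labelled libraries and turned to 0.04 in double-heterozygous-labelled libraries. Mcam, an adhesion molecule that binds laminin, varied least of the 9 genes, with a coefficient of variation of 10.3% over the 12 libraries. It was at 128.7, 129.4, 108.0 and 132.0 CPM in Gata5-null-labelled, 103.9, 102.6, 125.7 and 130.3 CPM in double-heterozygous-labelled and 112.7, 108.7, 114.8 and 137.7 CPM in wildtype libraries. Its log2 fold change was 0.07 ± 0.14 (95% interval -0.21 to 0.35) in Gata5-null-labelled and -0.03 ± 0.14 (95% interval -0.31 to 0.24) in double-heterozygous-labelled libraries.

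**Figure D2:**
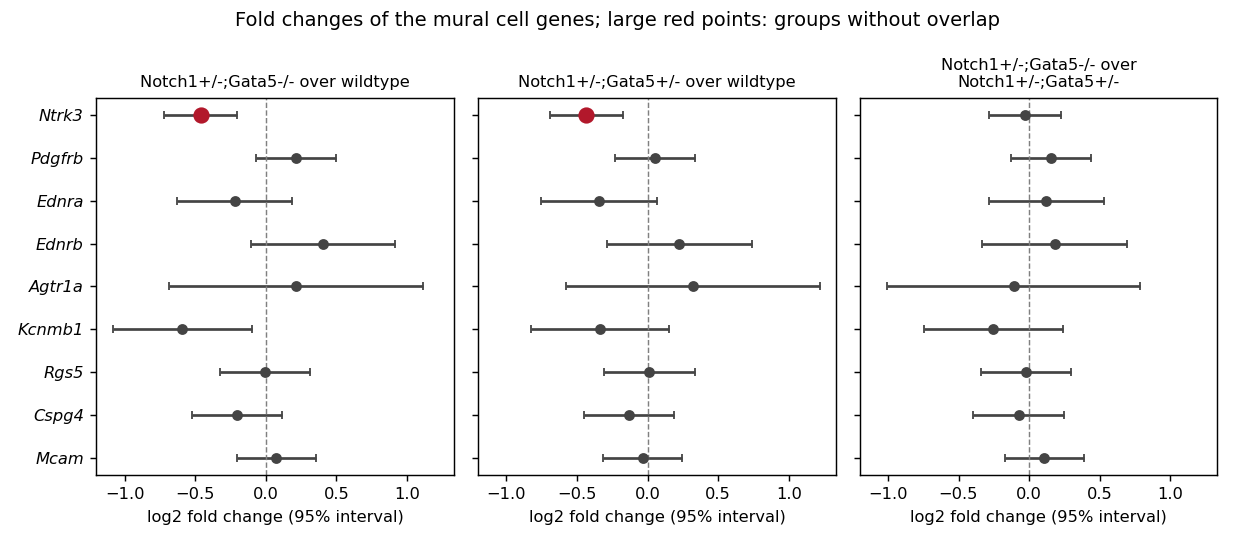
Log2 fold changes of the 9 genes from edgeR, with 95% intervals, in the 3 comparisons of genotype groups (n = 4 libraries each). Large red points mark genes whose groups do not overlap, which are those of Ntrk3 at -0.46 and -0.43, and no gene passed an adjusted p of 0.05.

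Across the 9 genes, 0 were called in any of the 3 comparisons at an adjusted p under 0.05 by edgeR, where 0.0258% of all genes were called for Gata5-null-labelled over wildtype and 0 of 19346 in both other comparisons. By DESeq2 0 of the 9 were called as well, beside 0.24%, 0.0391% and 0.0635% of genes for Gata5-null-labelled over wildtype, double-heterozygous-labelled over wildtype and Gata5-null-labelled over double-heterozygous-labelled. At an unadjusted edgeR p under 0.05 the count was 2 of 9 for Gata5-null-labelled over wildtype (Ntrk3 and Kcnmb1), beside 5.4% of all genes. It was 1 of 9 for double-heterozygous-labelled over wildtype (Ntrk3), beside 1.25%, and 0 of 9 between the mutant groups, beside 3.18%. In each comparison 5 of the 9 fold changes were negative and 4 positive. The median log2 fold change of the 9 genes was -0.01 for Gata5-null-labelled over wildtype, beside -0.03 over all genes tested. It was -0.03 for double-heterozygous-labelled over wildtype, beside 0.00, and -0.02 between the mutant groups, beside -0.04.

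Between the mutant groups the 9 genes had log2 fold changes, Gata5-null-labelled over double-heterozygous-labelled, from -0.25 ± 0.24 for Kcnmb1 to 0.18 ± 0.25 for Ednrb. No member had groups without overlap there, against 2.73% of all genes in either direction. The edgeR adjusted p was 1 for each of the 9.

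In the wider mural cell list 14 of 24 fold changes were positive and 10 negative for Gata5-null-labelled over wildtype, none was called by edgeR, and the median log2 fold change was 0.05. The same list gave 14 positive, 10 negative and a median of 0.03 for double-heterozygous-labelled over wildtype. Itga7, a laminin-binding integrin of muscle, averaged 153 ± 5.87 CPM in Gata5-null-labelled and 190 ± 13.4 CPM in wildtype libraries without overlap (log2 fold change -0.31, edgeR adjusted p = 0.860). Tbx2, a transcription factor gene, averaged 13.8 ± 2.01 CPM in Gata5-null-labelled and 9.96 ± 3.39 CPM in wildtype libraries. The summed level of the 21 list genes other than Pln, Casq2 and Des, which heart muscle also makes, was 1055 ± 90.5 CPM in Gata5-null-labelled, 1053 ± 128 CPM in double-heterozygous-labelled and 1091 ± 84.1 CPM in wildtype libraries. This sum keeps Itga7 and Abcc9, with medians of 173 and 185 CPM over the 12 libraries. The part of heart muscle in it was not tested.

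The contractile genes of smooth muscle were mostly lower. In Gata5-null-labelled over wildtype 19 of 21 fold changes were negative with a median of -0.35, and 4 genes fell by the edgeR test: Synpo2, Mylk, Myh11 and Cnn1. Myh11, the smooth muscle myosin heavy chain, averaged 1397 ± 208 CPM in Gata5-null-labelled and 2357 ± 365 CPM in wildtype libraries (log2 fold change -0.75, adjusted p = 0.0136). Mylk, the kinase that activates myosin, averaged 263 ± 28.3 CPM in Gata5-null-labelled and 442 ± 47.2 CPM in wildtype libraries (-0.75, adjusted p = 0.00861). The count of called contractile genes was 1 without wildtype replicate 2, 2 without Gata5-null-labelled replicate 1 or replicate 2, 7 without Gata5-null-labelled replicate 4, 7 by DESeq2 and 0 without the pair of libraries that stood apart. With only the 8 libraries of this comparison in the fit, edgeR called 0 of all genes, these included. For double-heterozygous-labelled over wildtype 16 of 21 were negative, none called, with a median of -0.19. Whether the mural and the contractile list differ was not tested. The other marker lists had 0 genes called in any comparison, and their medians for Gata5-null-labelled over wildtype were -0.03 (fibroblast), 0.11 (endothelial), 0.05 (Schwann cell and melanocyte), 0.08 (neuron), 0.14 (cardiomyocyte), -0.07 (macrophage) and 0.28 (erythroid). Nfatc1, a transcription factor of the endocardium, averaged 42.6 ± 9.94 CPM in Gata5-null-labelled and 24.5 ± 4.71 CPM in wildtype libraries (log2 fold change 0.80, edgeR adjusted p = 0.525), and Erg, an endothelial transcription factor, 76.9 ± 12.1 CPM in Gata5-null-labelled and 59.3 ± 4.199 CPM in wildtype libraries (0.37, edgeR adjusted p = 0.860).

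The other marker genes with the smallest p in their lists were likewise not called. Pi16 averaged 46.0 ± 17.6 CPM in Gata5-null-labelled and 64.1 ± 8.44 CPM in wildtype libraries, and Mfap5, of the microfibrils, 59.8 ± 7.17 CPM in Gata5-null-labelled and 73.5 ± 11.4 CPM in wildtype libraries. The melanocyte genes Pmel and Tyrp1 averaged 14.1 ± 9.18 CPM and 12.8 ± 7.30 CPM in Gata5-null-labelled libraries, against 6.19 ± 2.75 CPM and 6.51 ± 4.02 CPM in wildtype libraries. Nppa, the atrial natriuretic peptide, was lower without overlap at 34.3 ± 13.2 CPM in Gata5-null-labelled and 57.7 ± 9.11 CPM in wildtype libraries (log2 fold change -0.75, edgeR adjusted p = 0.872), while Myh7, a cardiac myosin, averaged 329 ± 243 CPM in Gata5-null-labelled and 175 ± 104 CPM in wildtype libraries. The log2 fold changes were -0.93 for Uchl1 and 0.64 for Tubb3 (neuron), 1.53 for Cd68 and -0.69 for C1qc (macrophage), and 1.63 for Slc4a1 and 0.38 for Hbb-bt (erythroid), all with means under 14 CPM.

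**Figure D3:**
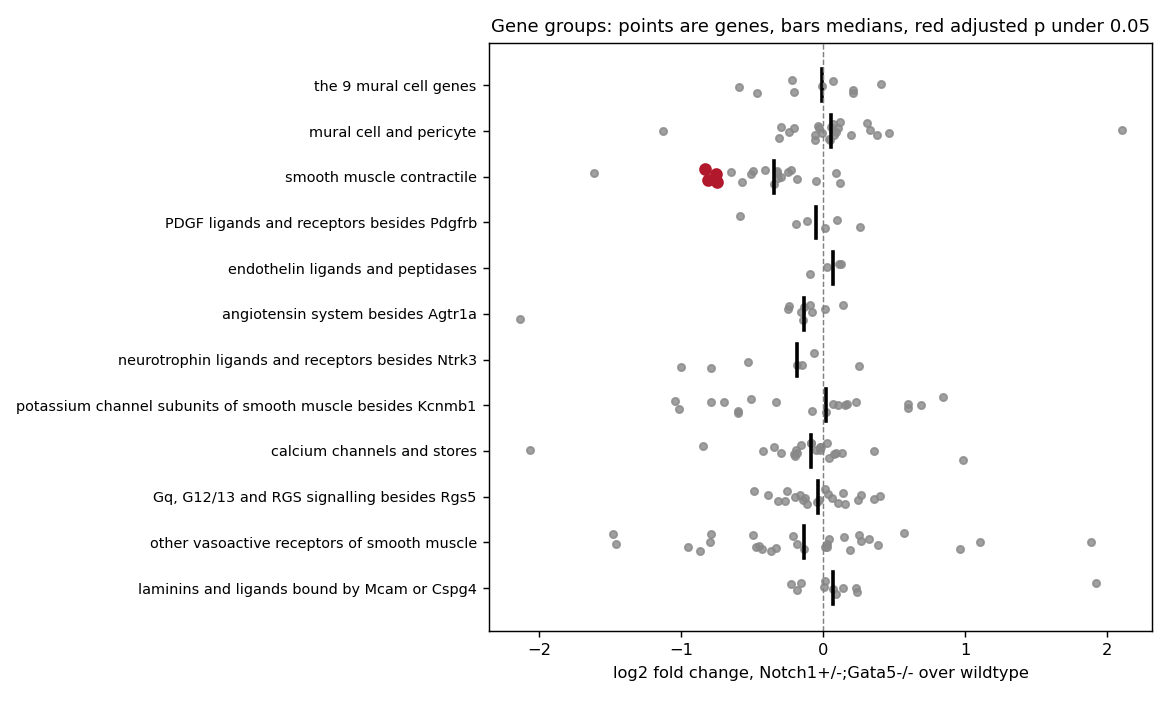
Log2 fold change, Gata5-null-labelled (Notch1+/-;Gata5-/-) over wildtype, of the 9 genes, of 2 marker lists and of 9 pathway lists around the members. Points are genes, black bars are medians, and red points have an edgeR adjusted p under 0.05, which holds for 4 contractile genes and for no gene of the other groups.

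The partners of the members were read from 9 pathway lists, and no gene in them was called in any of the 3 comparisons by edgeR. Among the growth factors, Pdgfd, a ligand of Pdgfrb, averaged 34.8 ± 12.3 CPM in Gata5-null-labelled and 52.4 ± 8.04 CPM in wildtype libraries (log2 fold change -0.59, edgeR adjusted p = 0.860), and Pdgfa, a ligand of Pdgfra, 29.0 ± 2.93 CPM in Gata5-null-labelled and 24.2 ± 2.78 CPM in wildtype libraries. The 6 genes of this list had a median of -0.05, with 3 positive and 3 negative. Ntf3, the ligand of Ntrk3, averaged 6.87 ± 5.38 CPM in Gata5-null-labelled and 11.9 ± 3.999 CPM in wildtype libraries (log2 fold change -0.79, edgeR adjusted p = 0.9997), and Ntrk2, the receptor of a related neurotrophin, 8.01 ± 5.06 CPM in Gata5-null-labelled and 11.6 ± 1.79 CPM in wildtype libraries. In that list 6 of 7 fold changes were negative with a median of -0.19.

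Of the 4 endothelin genes tested, 3 were positive and 1 negative with a median of 0.07. Edn1, the ligand, averaged 11.02 ± 6.28 CPM in Gata5-null-labelled and 10.2 ± 1.90 CPM in wildtype libraries, and Mme, a peptidase that degrades it, 23.9 ± 3.31 CPM in Gata5-null-labelled and 25.4 ± 3.02 CPM in wildtype libraries. The angiotensin list had 8 of 10 negative and a median of -0.14, with Anpep, an aminopeptidase, at 28.8 ± 2.93 CPM in Gata5-null-labelled and 34.1 ± 5.39 CPM in wildtype libraries. Ren1, the gene of renin, was near the limit of counting at 0.279 ± 0.558 CPM in Gata5-null-labelled and 1.27 ± 0.613 CPM in wildtype libraries.

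Potassium channel genes of smooth muscle were split, with 10 of 19 positive and 9 negative and a median of 0.02. Kcnd3, a voltage-gated channel, averaged 5.08 ± 1.57 CPM in Gata5-null-labelled and 10.3 ± 1.43 CPM in wildtype libraries without overlap (log2 fold change -1.01, edgeR adjusted p = 0.849). Kcna5, also voltage-gated, averaged 20.3 ± 4.99 CPM in Gata5-null-labelled and 12.6 ± 3.24 CPM in wildtype libraries (0.69, edgeR adjusted p = 0.872). Among 23 calcium channel and store genes 16 were negative, with a median of -0.09. Cacnb2, a calcium channel beta subunit, averaged 101 ± 19.8 CPM in Gata5-null-labelled and 78.5 ± 11.7 CPM in wildtype libraries (0.36, edgeR adjusted p = 0.870), and Atp2b4, a calcium pump, 182 ± 17.4 CPM in Gata5-null-labelled and 208 ± 29.3 CPM in wildtype libraries.

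Downstream of the receptors, 12 of 22 G protein and Rgs genes were negative, with a median of -0.04. Ppp1r12a, the targeting subunit of myosin phosphatase, averaged 318 ± 67.2 CPM in Gata5-null-labelled and 447 ± 16.6 CPM in wildtype libraries without overlap (log2 fold change -0.49, edgeR adjusted p = 0.499). Plcb4, a phospholipase C, averaged 71.3 ± 8.82 CPM in Gata5-null-labelled and 84.8 ± 8.54 CPM in wildtype libraries. Of 29 other vasoactive receptor genes 15 were negative, with a median of -0.14. Both chains of the nitric oxide receptor were the leading ones: Gucy1a1 averaged 209 ± 45.7 CPM in Gata5-null-labelled and 290 ± 47.3 CPM in wildtype libraries (-0.47, edgeR adjusted p = 0.825), and Gucy1b1 108 ± 27.7 CPM in Gata5-null-labelled and 146 ± 19.2 CPM in wildtype libraries (-0.43, edgeR adjusted p = 0.839). Among 11 laminins and other ligands of Mcam or Cspg4, 8 were positive with a median of 0.07, with Col6a2, a collagen VI chain, at 458 ± 58.6 CPM in Gata5-null-labelled and 536 ± 33.5 CPM in wildtype libraries and Lgals1, galectin 1, at 294 ± 54.6 CPM in Gata5-null-labelled and 249 ± 20.9 CPM in wildtype libraries.

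Across the 12 libraries the members did not move as a block. The highest correlations of log2 CPM among them were those of Kcnmb1 with Cspg4 (Pearson r = 0.72, Spearman rho = 0.64) and with Ntrk3 (r = 0.71, rho = 0.67). Both rest partly on wildtype replicate 2: without it r was 0.53 and 0.58. Without the 2 libraries farthest from the median, r was 0.41 for Kcnmb1 with Cspg4 and 0.43 for Kcnmb1 with Ntrk3. Rgs5 and Mcam had r = 0.53 and rho = 0.58. These are descriptions over 12 libraries that also share genotype, dissection and depth, and the highest were picked from 36 pairs.

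Rgs5 tended to be high in libraries where heart muscle genes were high. Its level correlated with the summed level of 15 cardiomyocyte genes at r = 0.74 and rho = 0.77 over the 12 libraries, and at r = 0.56 without the 2 libraries farthest from the median. Its r was also high with other lists. It was 0.86 (rho = 0.90, and 0.90 for r without the 2 farthest libraries) with the potassium channel list. It was 0.85 (rho = 0.83, and 0.80) with the other mural cell genes and 0.75 (rho = 0.85, and 0.57) with the calcium list. The mural list here holds Pln, Casq2 and Des, which heart muscle also makes, and Pln is in the cardiomyocyte list too. Ryr2 is in both the calcium and the cardiomyocyte list. In wildtype libraries Ryr2 averaged 2010 CPM of a mean calcium sum of 7978 CPM. Atp2a2, a calcium pump gene in the calcium list, averaged 3964 CPM there. Together Ryr2 and Atp2a2 made up most of the calcium sum, and the part of heart muscle in it was not tested. Correlations without Atp2a2 or the shared genes were not computed. The cardiomyocyte sum lay between 40318 and 57937 CPM in Gata5-null-labelled, 30435 and 58885 CPM in double-heterozygous-labelled and 24916 and 53922 CPM in wildtype libraries. Wildtype replicate 2 and double-heterozygous-labelled replicate 1 had the lowest sums of all and the lowest Rgs5 levels of all. Agtr1a had r = 0.76 and rho = 0.82 with the same sum, and r = 0.83 without those 2 libraries. With the calcium list Agtr1a had r = 0.80 and rho = 0.66, and r = 0.75 without them. The part of heart muscle in the Rgs5 and Agtr1a levels was not tested.

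Against the summed level of the 21 contractile genes, Ntrk3 had r = 0.64 (rho = 0.57) and Kcnmb1 r = 0.53 (rho = 0.46), and without the 2 libraries farthest from the median r was 0.60 and 0.55. With the other vasoactive receptor genes, r over the 12 libraries was 0.67 (rho = 0.61) for Ntrk3 and 0.79 (rho = 0.64) for Kcnmb1. Without the 2 farthest libraries these values were 0.62 for Ntrk3 and 0.49 for Kcnmb1, the latter below its 0.55 with the contractile sum. Kcnmb1 also had r = 0.68 (rho = 0.50) with the G protein and Rgs list and r = 0.64 (rho = 0.77) with the list of laminins and other ligands. With the fibroblast list it had r = 0.58 (rho = 0.64), and 0.23 without the 2 farthest. The contractile sum was 7255 to 10467 CPM in Gata5-null-labelled, 8455 to 11247 CPM in double-heterozygous-labelled and 10535 to 12603 CPM in wildtype libraries. This sum includes Des and Casq2, which heart muscle also makes, with medians of 291 and 363 CPM over the 12 libraries. The part of the contractile sum in the Ntrk3 and Kcnmb1 values was not tested. Pdgfrb had r = -0.61 and rho = -0.55 with the contractile sum, and r = -0.24 without the 2 farthest libraries. Ednrb had r = 0.74 (rho = 0.77) with the neuron list, whose sum was only 13.5 to 25.3 CPM. Cspg4 had r = 0.72 (rho = 0.62) with the fibroblast list, and 0.44 without the 2 farthest. For Ntrk3, Kcnmb1, Rgs5, Agtr1a, Ednrb and Cspg4 the list with the highest r among 18 is included. The other lists were picked by hand, and the sums share libraries and some genes.

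**Figure D4:**
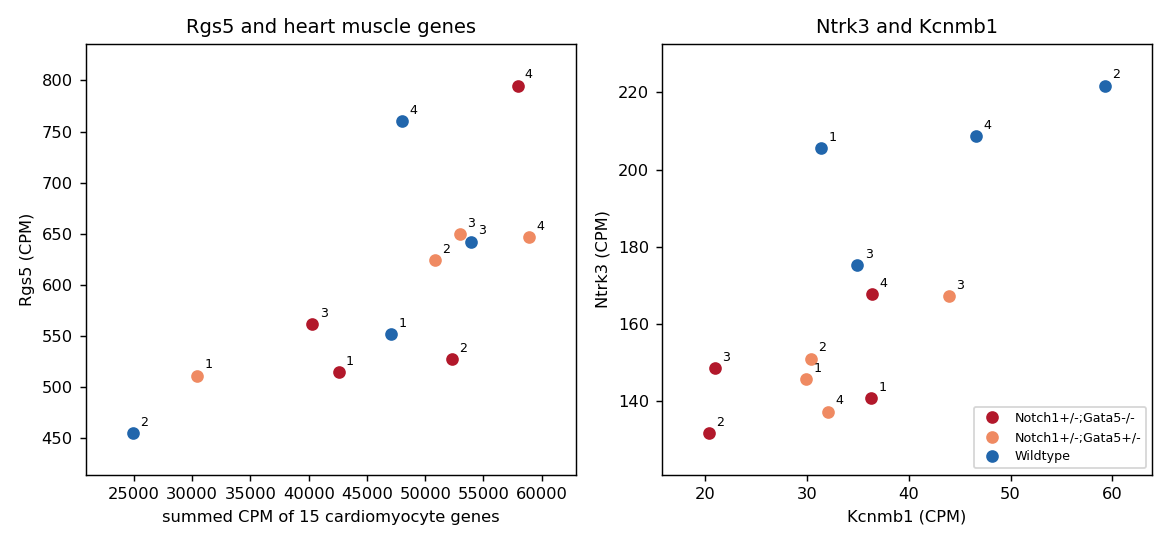
Left, Rgs5 in CPM against the summed CPM of 15 cardiomyocyte genes in each of the 12 libraries. Right, Ntrk3 in CPM against Kcnmb1 in CPM. Points are libraries with their replicate numbers, coloured by genotype, and neither vertical axis starts at 0. On the left the genotypes are mixed along the trend (r = 0.74), and on the right all 4 wildtype libraries lie above 175 CPM of Ntrk3.

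The genes whose log2 CPM followed each member most closely over the 12 libraries, out of 12141 candidates, were, for Ntrk3, the collagen gene Col6a6 (r = 0.94) and C1qtnf6 (r = 0.92). They were Boc and Mrgbp for Pdgfrb (r = 0.91 and 0.90), Lamtor5 and Gtpbp3 for Ednra (0.80 and 0.78), and Thtpa and Man1c1 for Ednrb (0.87 each). Agtr1a was followed by Cyfip2 and Ktn1 (0.87 and 0.85), Kcnmb1 by Sema5a and Elmod2 (0.94 and 0.93), and Rgs5 by Immt, a protein of the mitochondrial inner membrane, and Prpf19 (0.97 and 0.93). Cspg4 was followed by Angptl2 and Abl1 (0.92 and 0.90) and Mcam by Adsl and Dcaf7 (0.93 and 0.89). No member was among the nearest genes of another member. When deviations from the group means were ranked in place of log2 CPM, the nearest gene stayed the same for Agtr1a and Rgs5 and was another for the other 7. It was then Jag1 for Ntrk3 (r = 0.88), Rtel1 for Pdgfrb (0.94), Ndufaf7 for Ednra (0.94) and Prkra for Ednrb (0.88). For Kcnmb1 it was Wwc1 (0.96), for Cspg4 Flna (0.97) and for Mcam Mtus1 (0.94).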

How the data were processed

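The authors deposited raw counts per gene and library. Per the submitters' processing notes, Trim Galore, STAR 2.7.10b, DESeq2 1.34.0 and GRCm39 were used; which counter, annotation release and strand setting were used is not given in these sources. Without strand, reads of Ednra and Mcam cannot be told apart from those of the opposite-strand genes 4933431K23Rik and Gm10687, which share 91 and 17 exonic bases with them and had at most 4.27 and 6.90 CPM. The deposited comparison table has p-values and, per gene, a log2 fold change with its standard error, a Wald score and a mean signal scaled by the authors. Its fold changes lie within 1.66e-04 of DESeq2 1.42.0 values for Gata5-null-labelled over wildtype.

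The counts went into edgeR 4.0.16 (R 4.3.3): filterByExpr, TMM, a robust quasi-likelihood fit to all 12 libraries and Benjamini-Hochberg adjustment, with calls at 0.05. The common biological coefficient of variation was 0.680. Symbols came from the deposited table and GENCODE, whose gene lengths gave CPM per kb. Single values were also compared by exact permutation over 35 splits.

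The members and lists were chosen with earlier results of these data known. Lists share genes. From each list the text names the 2 genes with the smallest p for Gata5-null-labelled over wildtype and any gene called; the nearest genes of a member are the 2 with the highest r. Notch3, Abcc9, Kcnj8, Higd1b, Ndufa4l2, Vtn, Foxs1, Gper1, Myh6, Foxd3, Dct, Kcnma1, Pdgfra, Pln, Casq2, Des and Ryr2 were named outside this rule, after their values were seen. So were the nearest genes by deviations from the group means. Libraries of one group may share litters or days, which the labels do not give, so p-values measure the spread between pools. Same-numbered libraries deviated together with r of -0.04 to 0.16, so the numbers were not taken to pair them. The highest of these r, at 0.16, 0.10 and 0.095, were those between replicates numbered 4. In each group replicate 4 also had the highest contractile, mural and endothelial sums. What these libraries share was not tested. Alternatives were other scalings and filters, DESeq2, limma-voom (limma 3.58.1), only the 8 libraries compared, a replicate block, the authors' limits (0.1 for adjusted p, 0.58 for absolute log2 fold change) and each library left out.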

Additional observations from a re-analysis of the deposited data

Results flagged for a closer look

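Among the 27 groups of 4 libraries that the 9 genes form, 2 held a library far from the other 3 on the scale of log2 CPM. With CPM in place of log2 CPM, the groups marked would not all be the same. Rgs5 in double-heterozygous-labelled replicate 1 was at 511.1 CPM, below the other 3 at 624.0 to 649.6 CPM. The gap took 0.832 of the group's range in log2 CPM. Mcam in Gata5-null-labelled replicate 3, which is among the libraries that stood apart, was at 108.0 CPM, below the other 3 at 128.7 to 132.0 CPM. Its gap share in log2 CPM was 0.874. Chance marks about 1 in 20 groups in this way. Neither value moved a call: Rgs5 and Mcam were not called with or without these libraries.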

How the results depend on the processing

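In all 22 alternatives of each comparison 0 of the 9 genes were called. Ntrk3 kept its direction in all of them, with log2 fold changes of -0.53 to -0.40 for Gata5-null-labelled over wildtype (adjusted p 0.1005 to 0.9999) and -0.49 to -0.38 for double-heterozygous-labelled over wildtype (0.660 to 1). Kcnmb1 ranged over -0.73 to -0.27 for Gata5-null-labelled over wildtype. With the replicate number as a block, 0 members were called in each comparison. It called 7 genes in all for Gata5-null-labelled over wildtype and 0 in the other comparisons, and Ntrk3 had -0.46 in Gata5-null-labelled and -0.43 in double-heterozygous-labelled libraries over wildtype; 3 of 12 libraries correlated best with their own number.

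The count of all genes called for Gata5-null-labelled over wildtype was 5. It was 49 by DESeq2, 0 with only the 8 libraries compared, 2 without both libraries that stood apart, 8 at the authors' thresholds, and 2 to 21 with each library left out (2 without wildtype replicate 2, 3 without Gata5-null-labelled replicate 1, 21 without Gata5-null-labelled replicate 4). The counts by DESeq2 were 8 for double-heterozygous-labelled over wildtype and 13 for Gata5-null-labelled over double-heterozygous-labelled. The count between the mutant groups was 0 to 1 with a library left out and 2 without both that stood apart. For both mutant groups over wildtype it was 1, 0 to 9 with a library left out and 2 without both. The cause was not tested.

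Sign changes of single genes were limited to values within 0.146 of 0. For Gata5-null-labelled over wildtype Rgs5 turned to 0.0190 (RLE), 0.00327 (upper quartile), 0.0191 (DESeq2) and 0.0121 (voom). With a library left out Rgs5 spanned -0.174 to 0.125, Agtr1a -0.0932 to 0.467 and the log2 ratio of Kcnmb1 to Kcnma1 -0.547 to 0.106. For double-heterozygous-labelled over wildtype Rgs5 and Cspg4 turned to -0.0077 and 0.0229 with voom quality weights and to -0.101 and 0.0433 without both libraries that stood apart. With a library left out Rgs5 spanned -0.101 to 0.147, Cspg4 -0.239 to 0.0434, Pdgfrb -0.0297 to 0.122 and Mcam -0.0952 to 0.0472. Between the mutant groups Ntrk3 and Rgs5 turned to 0.00310 and 0.0102 (RLE) and to 0.00329 and 0.0103 (DESeq2). Without both libraries that stood apart Ednra was -0.0249, Ednrb -0.0195, Agtr1a 0.0278 and Rgs5 0.0166. With a library left out Ntrk3 spanned -0.102 to 0.0243, Rgs5 -0.189 to 0.0609, Cspg4 -0.147 to 0.0188, Agtr1a -0.416 to 0.146, Ednra -0.0286 to 0.205 and Ednrb -0.0231 to 0.378. Of the list medians, those of the growth factors (0.10 without Gata5-null-labelled replicate 3), the G protein genes (0.08 without wildtype replicate 4), the vasoactive receptors (0.0082 without both libraries that stood apart), the fibroblast genes (0.0495 without Gata5-null-labelled replicate 3) and the neuron genes also turned sign. The neuron median was -0.180 to -0.0193 without wildtype replicate 2 or 4 or Gata5-null-labelled replicate 1, 2 or 4, and 0.306 without both libraries that stood apart.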
